A study of Mus musculus with 8 samples.

Results

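Cells that resemble the 2-cell embryo appear now and then in cultures of mouse embryonic stem cells (ESCs), and a small set of proteins is known to push cells into that state or to hold them out of it. The 10 genes described here encode such proteins, 2 activators (Dppa2 and Dppa4) and 8 repressors (Trim28, Setdb1, Ehmt2, Chaf1a, Chaf1b, Kdm1a, Zmym2 and Rif1). They were taken by name from what is known of the 2-cell-like state, with earlier results of these data known, and make up 10 of the 55418 genes in the count tables. Depletion of the histone chaperone subunits Hira, Ubn1 or Ubn2 raised genes of the 2-cell embryo in these cells, and the question was whether the RNA of the known activators and repressors moved with them.

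RNA was sequenced from E14 mouse ESCs grown in serum with LIF on gelatin, with 2 libraries for each of 4 conditions. Each culture received a pSuper-puro plasmid, 1000 ng, that drives a short hairpin RNA, and was then selected with puromycin at 1 µg/ml for 3 days. The hairpin was directed at Hira, Ubn1 or Ubn2, and the control, labelled wild type, carried a hairpin against luciferase per the study's methods, so that the plasmid and the drug were shared by all 8 libraries. Which of the study's hairpins was used in each library is not given in the sources used here, and neither is whether the 2 libraries of a condition came from separate cultures, so the p-values measure only the spread between these libraries, which may be technical. They are called the control, Hira, Ubn1 and Ubn2 libraries. Each held between 19710040 and 32706053 counts over genes. Levels are read counts scaled to library size (CPM). A gene passed the test when the adjusted p of edgeR's quasi-likelihood test was below 0.05, and log2 fold changes are given with their standard error (SE).

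Hira, Ubn1 and Ubn2 are subunits of the HIRA complex, which places the histone variant H3.3 on DNA outside of replication. Among the repressors, Trim28 is the co-repressor that zinc finger proteins bring to retroviral elements. Setdb1 is the H3K9 methyltransferase that Trim28 recruits, and Ehmt2 (G9a) is the enzyme that dimethylates H3K9. Chaf1a and Chaf1b are subunits of CAF-1, the chaperone that loads histones behind the replication fork, and Kdm1a (Lsd1) removes methyl groups from H3K4. Zmym2 is a zinc finger partner of Kdm1a complexes, and Rif1 is a replication timing factor that also represses 2-cell genes. Dppa2 and Dppa4 are SAP domain proteins that bind each other and switch on Dux, the transcription factor at the head of the 2-cell programme, which in turn drives Zscan4 genes and MERVL elements.

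The targeted RNAs followed the labels. Hira stood at 89.5 and 97.7 CPM in the control libraries and at 10.03 and 10.4 CPM after its depletion (log2 fold change -3.22, SE 0.10, edgeR adjusted p = 5.57e-15). Ubn1 stood at 53.1 and 44.1 CPM in control and 23.8 in both Ubn1 libraries (log2 fold change -1.03, SE 0.12, edgeR adjusted p = 4.02e-07). Ubn2 went from 50.1 and 51.7 CPM to 30.1 and 24.6 CPM (log2 fold change -0.90, SE 0.10, edgeR adjusted p = 7.2e-07). The summed level of 10 pluripotency genes, among them Pou5f1 and Nanog, was between 5265 and 6160 CPM in all 8 libraries. Single genes moved within that sum. After Hira, Ubn1 and Ubn2 depletion, 1, 0 and 3 of the 10 rose and 3, 1 and 3 fell. The 8 primitive endoderm markers summed to 127 to 157 CPM. Of these, 2, 1 and 0 rose and 0, 2 and 0 fell in the same comparisons. Among all genes tested, 17.6%, 4.14% and 20.0% rose and 17.3%, 3.62% and 19.1% fell.

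Some markers of other cell types moved with the conditions. The 10 heart muscle markers summed to 37.4 to 58.0 CPM in the control, Hira and Ubn1 libraries and to 374 and 242 CPM in the Ubn2 libraries, with 8 of 10 tested higher and 1 lower, and Actc1 (cardiac actin) and Tnnt2 (cardiac troponin T) at no more than 0.46 CPM in each of the other 6. The 8 neural markers summed to 122 and 130.2 CPM in control, 265 and 277 CPM in the Hira libraries, 155 and 181 CPM in the Ubn1 libraries and 105 and 115 CPM in the Ubn2 libraries, with Dcx at 0 everywhere. The 8 trophoblast markers summed to 72.7 and 71.4 CPM in control and to 140.0 and 114 CPM in the Hira libraries, mostly the keratins Krt8 and Krt18, while Elf5 was at no more than 0.18 CPM. They summed to 67.5 and 73.0 CPM in the Ubn1 libraries and to 60.9 and 65.0 CPM in the Ubn2 libraries. Of 6 tested, 5 rose and 0 fell after Hira depletion, and 1 rose and 2 fell after Ubn2 depletion. After Ubn1 depletion 0 of 4 rose and 1 fell. The 7 blood markers summed to 8.97 and 5.82 CPM in the Ubn2 libraries and to 1.82 to 3.00 CPM in the other 6, with 2 of the 4 tested higher after Ubn2 depletion, the globin genes Hbb-bs and Hba-a1. The 8 fibroblast markers summed to 35.7 and 31.6 CPM in the Ubn2 libraries and to 35.1 to 45.4 CPM in the others, with 3 of 6 tested higher (Col3a1, Postn and Col1a2) and 2 lower (Thy1 and Pdgfrb) after Ubn2 depletion, and Dcn and Lum at 0 outside the Ubn2 libraries. The part of all these markers in the results on the regulators was not tested. In bulk RNA, fewer cells of a type and less RNA per cell cannot be told apart.

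The 2-cell genes set the pattern against which the regulators were read. Over 34 genes of the 2-cell embryo, the summed level was 17.0 and 11.0 CPM in the control libraries, 60.4 and 45.3 CPM in the Hira libraries, 36.9 and 38.5 CPM in the Ubn1 libraries and 60.8 and 87.7 CPM in the Ubn2 libraries. All 6 depleted libraries therefore lay above both controls, with mean sums 3.77, 2.69 and 5.30 times the control mean for Hira, Ubn1 and Ubn2, and the order of the means was Ubn2, Hira, Ubn1, control. Both Hira libraries lay below both Ubn2 libraries, but the nearest pair stood at 60.4 and 60.8 CPM. The sums are given without a test, and the smallest exact permutation p that 2 libraries against 2 allow is 0.333. The filter on low counts let 18, 17 and 18 of the 34 genes into the 3 comparisons with control, mostly through the depleted libraries. Of those, 15, 11 and 17 rose and 0 fell, which is a description of the genes that entered and not of the whole list. The Ubn1 count was 4 without control replicate 2 and 3 with DESeq2, and the Hira and Ubn2 counts were 8 each where at least 10 counts were asked of every library.

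Zscan4f, one of the telomere-associated Zscan4 genes, stood at 0.88 and 0.69 CPM in control, 6.09 and 4.27 CPM in the Hira libraries, 3.61 and 3.34 CPM in the Ubn1 libraries and 5.52 and 7.91 CPM in the Ubn2 libraries. Its log2 fold change was 2.74, 2.16 and 3.11 in the 3 comparisons, with edgeR adjusted p = 1.29e-06, 7.12e-05 and 4.81e-08. Zscan4 genes are near-identical copies, so how reads were shared among them is uncertain. Duxf3, the annotated Dux gene and the target of Dppa2 and Dppa4, had 1 and 0 counts in control, 8 and 5 in the Hira libraries, 1 and 2 in the Ubn1 libraries and 5 and 7 in the Ubn2 libraries, and was below the filter in each comparison.

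**Figure D1:**
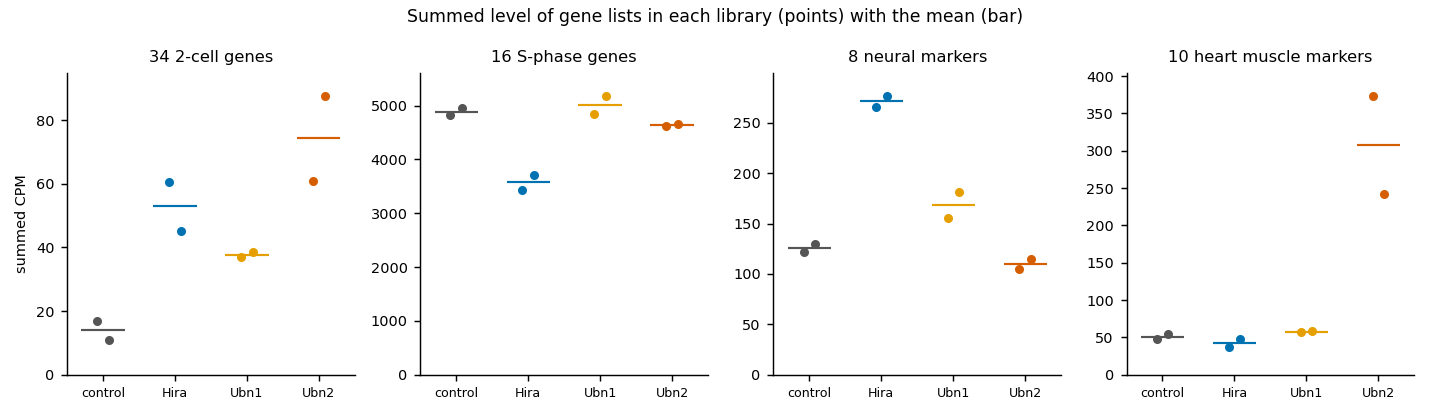
Summed level, in CPM on a linear axis from 0, of 34 2-cell genes, 16 S-phase genes, 8 neural markers and 10 heart muscle markers. Each point is 1 library and each bar the mean of the 2 libraries of a condition. The 2-cell genes lay above control in all 6 depleted libraries, the S-phase genes lay lowest in the Hira libraries (3433 and 3712 CPM), the neural markers highest in the Hira libraries and the heart muscle markers highest in the Ubn2 libraries.

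All 10 regulators were well expressed and passed the filter in every comparison. Per kilobase of exon, Trim28 was the highest of the 10 in control (441 CPM per kb), followed by Dppa4 (79.6) and Kdm1a (47.1), then Rif1 (28.8) and Ehmt2 (25.9), whose 2 libraries overlapped, then Dppa2 (20.8), Chaf1a (19.93) and Setdb1 (19.9), of which the last pair overlapped, then Chaf1b (17.5) and Zmym2 (14.7). For Chaf1a, 4648 of 8854 exon bases (52.5%) are shared with the antisense gene Ubxn6, and whether counting used strand is not given in the sources used here, so reads of the pair may not be told apart. Setdb1 shares 4.73% of its exon bases with genes on the other strand, and the other 8 share none.

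**Figure D2:**
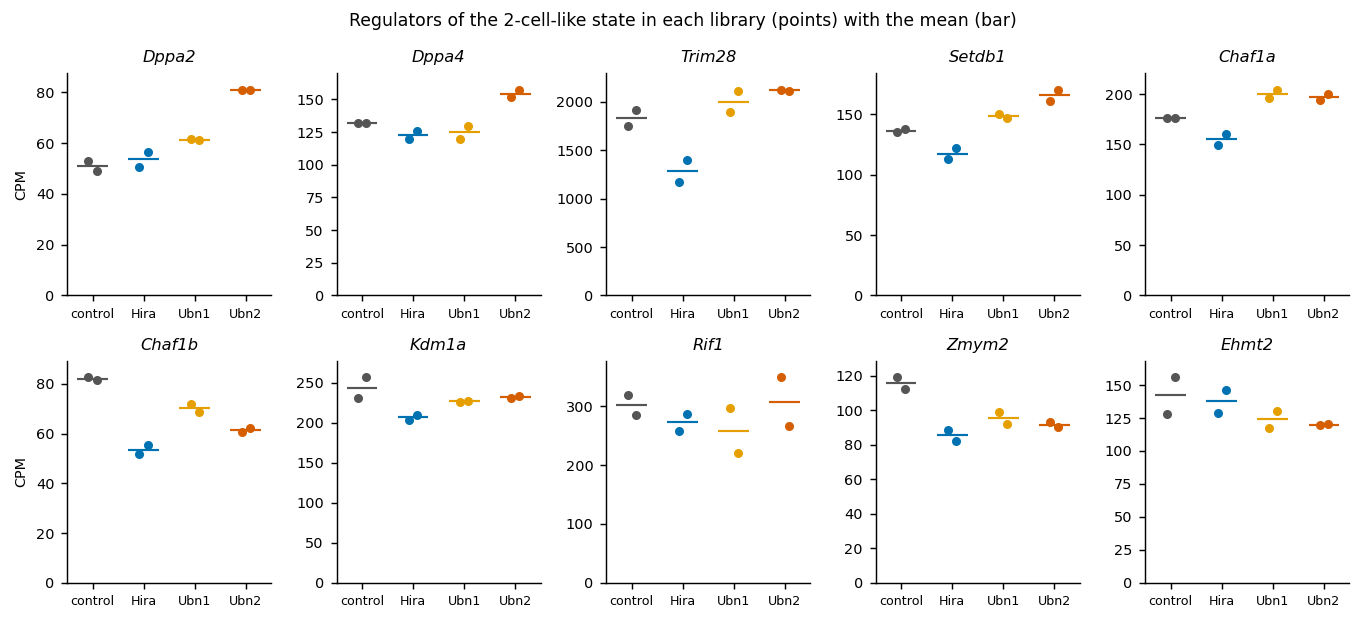
Level of each regulator, in CPM on linear axes from 0, in the 2 libraries (points) of control, Hira, Ubn1 and Ubn2 depletion, with the mean of each condition (bar). Trim28 and Setdb1 were lowest in the Hira libraries and highest in the Ubn2 libraries, Dppa2 stood at 80.8 and 81.0 CPM in the Ubn2 libraries against at most 61.4 in the others, and Chaf1b and Zmym2 were highest in control.

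In the comparison of Hira depletion with control, 6 of the 10 regulators fell and 0 rose. Among all 19035 genes tested, 17.3% fell and 17.6% rose. The 6 were Chaf1b, Trim28, Zmym2, Kdm1a, Setdb1 and Chaf1a, all repressors, and the median log2 fold change of the 10 was -0.22 against 0.01 for all genes tested. Only Chaf1b also passed a fold change of 1.5, which 16.2% of all genes passed in one direction or the other. After Ubn1 depletion 0 of the 10 passed with edgeR, where 4.14% of 18373 genes rose, 3.62% fell and 3.09% passed with a fold change over 1.5. There, 5 regulators had an unadjusted p under 0.05 and DESeq2 called 0. In the Ubn2 comparison 4 regulators rose (Dppa2, Setdb1, Dppa4 and Trim28) and 3 fell (Chaf1b, Zmym2 and Ehmt2), where 20.0% of 18219 genes rose and 19.1% fell. Dppa2 alone passed the fold change of 1.5, against 18.3% of all genes. The 3 comparisons share the same 2 control libraries.

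**Figure D3:**
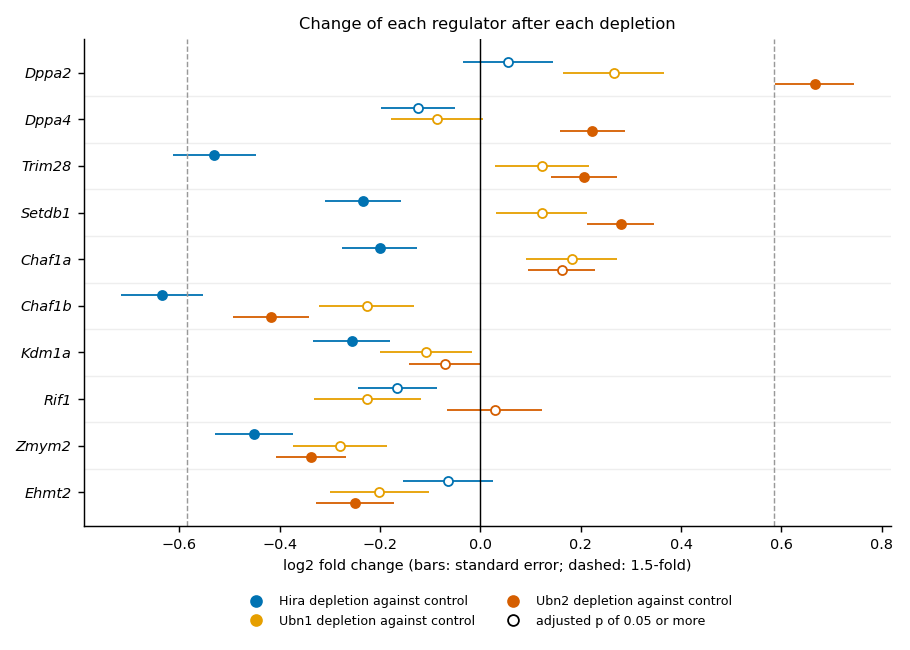
Log2 fold change of each regulator against control after Hira, Ubn1 and Ubn2 depletion. Points are the edgeR estimates, bars the standard errors, filled points passed the test, open points did not, and dashed lines mark a 1.5-fold change. Trim28 and Setdb1 lie left of 0 for Hira and right of 0 for Ubn2, and Chaf1b and Zmym2 lie left of 0 for all 3.

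Dppa2 rose after Ubn2 depletion. It stood at 52.8 and 49.2 CPM in control, 50.7 and 56.6 CPM in the Hira libraries, 61.4 and 61.3 CPM in the Ubn1 libraries, and 80.8 and 81.0 CPM in the Ubn2 libraries. The Ubn2 libraries lay above all others, the Ubn1 libraries next, and the Hira and control libraries overlapped. The log2 fold change against control was 0.67 (SE 0.08, edgeR adjusted p = 1.01e-06) for Ubn2, a level 1.59 times that of control, 0.27 (SE 0.10, edgeR adjusted p = 0.101) for Ubn1 and 0.05 (SE 0.09, edgeR adjusted p = 0.683) for Hira. The 2 Ubn2 libraries were alike in Dppa2 while they differed in summed 2-cell genes (60.8 and 87.7 CPM) and in summed heart muscle markers (374 and 242 CPM). This is 1 pair of libraries, and a link between these levels was not tested. Dppa2 lies on chromosome 16 (GRCm38, 48303908 to 48319723, plus strand), next to Dppa4 (48283733 to 48294237, plus strand).

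Dppa4, the partner of Dppa2, moved less. It stood at 132 CPM in both control libraries, at 120.1 and 125.5 CPM in the Hira libraries, at 119.9 and 129.7 CPM in the Ubn1 libraries, and at 152 and 157 CPM in the Ubn2 libraries. The Ubn2 libraries lay above control, and the Hira and Ubn1 libraries lay below control and overlapped each other. The rise after Ubn2 depletion was 0.22 on the log2 scale (SE 0.07, edgeR adjusted p = 0.00973), and this call was lost without Ubn2 replicate 2 (edgeR adjusted p = 0.0920). The changes of -0.12 (Hira, edgeR adjusted p = 0.208) and -0.09 (Ubn1, edgeR adjusted p = 0.635) did not pass. Both activators were thus higher than in control after Ubn2 depletion, and neither passed the test in the Hira comparison, where the 2-cell genes stood at 3.77 times the control sum.

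Other genes known to favour the 2-cell-like state were read from a list of 5, of which Duxf3 was too low to test. Tbx3, a T-box factor, stood at 151 and 181 CPM in control, 263 and 223 CPM in the Ubn1 libraries and 276 and 268 CPM in the Ubn2 libraries. It rose in those comparisons (log2 fold change 0.55 and 0.71, edgeR adjusted p = 0.00056 and 4.78e-07), whereas the change after Hira depletion was 0.13 (edgeR adjusted p = 0.284). Rarg, a retinoic acid receptor, rose after Hira (0.28, edgeR adjusted p = 0.0133) and Ubn2 depletion (0.43, edgeR adjusted p = 3.89e-05), and Nelfa, a subunit of the pausing factor NELF, rose after Hira depletion (0.29, edgeR adjusted p = 0.00554). In all, 2 of 4 tested rose after Hira depletion, 1 of 4 after Ubn1 depletion and 2 of 3 after Ubn2 depletion, and 0 of those tested fell. Among all genes tested, 17.6%, 4.14% and 20.0% rose in these comparisons. Dppa3 was too low to test in the Ubn2 comparison. It had 17 and 12 counts in control, 32 and 19 in the Hira libraries, 15 and 3 in the Ubn1 libraries and 3 in each Ubn2 library.

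Trim28 fell after Hira depletion and rose after Ubn2 depletion. It stood at 1752 and 1919 CPM in control, 1175 and 1398 CPM in the Hira libraries, 1893 and 2110.3 CPM in the Ubn1 libraries and 2125 and 2112 CPM in the Ubn2 libraries. Both Hira libraries lay below all 6 others, and both Ubn2 libraries lay above both controls. The log2 fold change was -0.53 (SE 0.08, edgeR adjusted p = 5.05e-05) for Hira, a level 0.693 times that of control, 0.12 (SE 0.09, edgeR adjusted p = 0.479) for Ubn1 and 0.21 (SE 0.07, edgeR adjusted p = 0.016) for Ubn2. The rise after Ubn2 depletion did not hold without control replicate 1 (edgeR adjusted p = 0.166) or with all 8 libraries in one fit (edgeR adjusted p = 0.0926). The gene lies on chromosome 7 (GRCm38, 12999114 to 13031035, plus strand).

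Setdb1, the methyltransferase recruited by Trim28, had the same order of conditions, Ubn2, Ubn1, control and Hira, with no overlap between neighbours. It stood at 135 and 138 CPM in control, 113 and 122 CPM in the Hira libraries, 150.4 and 147 CPM in the Ubn1 libraries and 161 and 170.5 CPM in the Ubn2 libraries. The log2 fold change was -0.23 (SE 0.08, edgeR adjusted p = 0.0207) for Hira, 0.12 (SE 0.09, edgeR adjusted p = 0.464) for Ubn1 and 0.28 (SE 0.07, edgeR adjusted p = 0.00208) for Ubn2. The fall after Hira depletion was lost without control replicate 1, control replicate 2 or Hira replicate 1 (highest edgeR adjusted p = 0.142), whereas the rise after Ubn2 depletion passed with any 1 library left out. Setdb1 lies on chromosome 3 (95323525 to 95357202, minus strand).

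Ehmt2 went from 128 and 156 CPM in control to 129 and 146 CPM in the Hira libraries, 117 and 130.5 CPM in the Ubn1 libraries and 119.5 and 120.3 CPM in the Ubn2 libraries. The 2 control libraries were far apart, and both Ubn2 libraries lay below them. The fall after Ubn2 depletion was -0.25 on the log2 scale (SE 0.08, edgeR adjusted p = 0.0148) and was lost without control replicate 2 (log2 fold change -0.10, edgeR adjusted p = 0.393). The changes after Hira (-0.07, edgeR adjusted p = 0.615) and Ubn1 depletion (-0.20, edgeR adjusted p = 0.227) did not pass. Ehmt2 lies on chromosome 17 (34898469 to 34914052, plus strand).

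Among 10 partners in H3K9 methylation, 3 rose and 5 fell after Hira depletion, 0 passed after Ubn1 depletion (1 at an unadjusted p under 0.05), and 3 rose and 2 fell after Ubn2 depletion. Of all genes tested, 17.6% rose and 17.3% fell after Hira depletion, and 20.0% rose and 19.1% fell after Ubn2 depletion. Atf7ip, which stabilizes Setdb1, rose after Ubn2 depletion (log2 fold change 0.65, edgeR adjusted p = 3.84e-07), as did Daxx (0.51, edgeR adjusted p = 3.91e-05), a chaperone that also deposits H3.3. Atrx, the partner of Daxx, fell after Hira depletion (-0.44, edgeR adjusted p = 0.000215), and the methyltransferase Suv39h2 rose there (0.44, edgeR adjusted p = 0.00143). The heterochromatin protein genes Cbx1 and Cbx5 fell in both comparisons, and were named after their values were seen.

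Chaf1b had the largest change against control among the repressors after Hira and after Ubn2 depletion. It stood at 82.7 and 81.4 CPM in control, 51.7 and 55.3 CPM in the Hira libraries, 71.8 and 68.6 CPM in the Ubn1 libraries and 60.7 and 62.2 CPM in the Ubn2 libraries. The 4 conditions did not overlap, in the order control, Ubn1, Ubn2 and Hira. The log2 fold change was -0.63 (SE 0.08, edgeR adjusted p = 4.99e-06) for Hira, a level 0.644 times that of control, -0.42 (SE 0.08, edgeR adjusted p = 0.000161) for Ubn2 and -0.23 (SE 0.10, edgeR adjusted p = 0.148) for Ubn1. The Hira and Ubn2 calls passed with any 1 library left out. Chaf1b lies on chromosome 16 (93883901 to 93906115, plus strand).

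Chaf1a, the large CAF-1 subunit, took another course. It stood at 176 and 177 CPM in control, 149.9 and 161 CPM in the Hira libraries, 196 and 204 CPM in the Ubn1 libraries and 195 and 201 CPM in the Ubn2 libraries. The Hira libraries lay below control and the Ubn1 and Ubn2 libraries above it. Only the fall after Hira depletion passed (log2 fold change -0.20, SE 0.07, edgeR adjusted p = 0.0412), and it was lost without control replicate 1, control replicate 2 or Hira replicate 1 and with all 8 libraries in one fit (adjusted p = 0.0842). The changes of 0.18 for Ubn1 and 0.16 for Ubn2 had edgeR adjusted p = 0.235 and 0.0603. The antisense gene Ubxn6 stood at 71.1 and 71.7 CPM in control, 68.5 CPM in both Hira libraries, 77.4 and 81.6 CPM in the Ubn1 libraries and 78.7 and 84.4 CPM in the Ubn2 libraries. Like Chaf1a, it was lower than control in the Hira libraries and higher in the other 4 (log2 fold change -0.08, 0.15 and 0.19, edgeR adjusted p = 0.49, 0.366 and 0.0499), and its part in the Chaf1a values was not tested. Chaf1a lies on chromosome 17 (56040439 to 56072289, plus strand).

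CAF-1 works with the replication clamp, and genes of DNA replication stood beside it. Of 16 S-phase genes, 14 fell and 0 rose after Hira depletion, 0 passed after Ubn1 depletion (2 at an unadjusted p under 0.05), and 6 fell and 2 rose after Ubn2 depletion, with medians of -0.50, 0.01 and -0.10 on the log2 scale. Of all genes tested, 17.3% fell and 17.6% rose after Hira depletion, and 19.1% fell and 20.0% rose after Ubn2 depletion. Pold1, the catalytic subunit of DNA polymerase delta, changed by -0.98 after Hira depletion (edgeR adjusted p = 9.87e-09), and Cdc6, which loads the replicative helicase, by -0.88 (edgeR adjusted p = 1.03e-07). The summed level of the 16 genes was 4822 and 4951 CPM in control, 3433 and 3712 CPM in the Hira libraries, 4835 and 5185 CPM in the Ubn1 libraries and 4613 and 4649 CPM in the Ubn2 libraries. Their part in the fall of Chaf1a, Chaf1b and Trim28 was not tested. Of 4 CAF-1 partners, the clamp gene Pcna fell after Hira (-0.69, edgeR adjusted p = 5.8e-07) and Ubn2 depletion (-0.25, edgeR adjusted p = 0.00693), Rbbp4 fell after Hira depletion (-0.41, edgeR adjusted p = 0.00017), and Asf1a, the chaperone that hands histones to HIRA and CAF-1, rose after Hira (0.43, edgeR adjusted p = 0.00245) and Ubn2 depletion (0.67, edgeR adjusted p = 1.24e-05).

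The start regions of the regulators were searched for letters found near many replication genes, 2 E2F-type motifs, TTCCCGC and TTGGCGC, on both strands. The motifs do not overlap each other in any window printed here. The RefSeq windows (GRCm38.p6) run from 250 bases before to 50 bases after a start site, and 7 of the 10 regulators had 1 or more, 9 windows in all. A match was found in 3 of the 9, those of Trim28, Chaf1a and Chaf1b, against 6.81% of the 32851 windows of all genes and 10 of 15 windows of the S-phase list. The windows of Setdb1, Kdm1a and Zmym2, which also fell after Hira depletion, and of Ehmt2 held no match. A match describes letters only. The RefSeq start site used for Trim28 lies inside the GENCODE span given for that gene (12999114 to 13031035), not at its first base. The 3 windows are shown because they carry the motif, which stands in capitals, and are given 5′ to 3′ on the gene's strand, at chr7:13023902-13024201 (plus) for Trim28, chr17:56040166-56040465 (plus) for Chaf1a and chr16:93883651-93883950 (plus) for Chaf1b.
Trim28: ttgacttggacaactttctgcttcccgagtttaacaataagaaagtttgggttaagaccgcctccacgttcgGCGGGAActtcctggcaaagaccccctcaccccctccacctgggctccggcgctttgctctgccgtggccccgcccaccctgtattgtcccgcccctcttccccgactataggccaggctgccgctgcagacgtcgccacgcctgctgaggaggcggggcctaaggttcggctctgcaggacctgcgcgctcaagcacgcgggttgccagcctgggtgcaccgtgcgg
Chaf1a: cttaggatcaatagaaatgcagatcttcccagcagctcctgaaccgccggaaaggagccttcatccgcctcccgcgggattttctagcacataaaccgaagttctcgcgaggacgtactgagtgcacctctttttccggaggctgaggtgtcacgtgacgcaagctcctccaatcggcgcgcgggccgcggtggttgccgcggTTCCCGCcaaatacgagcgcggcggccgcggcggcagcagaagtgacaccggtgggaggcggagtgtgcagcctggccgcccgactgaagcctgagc
Chaf1b: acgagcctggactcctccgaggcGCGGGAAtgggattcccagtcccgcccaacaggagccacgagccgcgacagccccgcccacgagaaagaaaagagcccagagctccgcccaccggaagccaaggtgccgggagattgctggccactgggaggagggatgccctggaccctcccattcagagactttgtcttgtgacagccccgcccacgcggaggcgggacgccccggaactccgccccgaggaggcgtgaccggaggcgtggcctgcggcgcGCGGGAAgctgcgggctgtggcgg
The match begins at position -178 from the start site in Trim28, at -47 in Chaf1a, and at -227 and 27 in Chaf1b, and every one is of the first motif or its reverse complement GCGGGAA.

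Kdm1a stood at 231 and 257 CPM in control, 203 and 210.3 CPM in the Hira libraries, 226 and 227 CPM in the Ubn1 libraries and 232 and 234 CPM in the Ubn2 libraries. The Hira libraries were the lowest of all, and the Ubn2 libraries fell between the controls. The fall after Hira depletion was -0.26 on the log2 scale (SE 0.08, edgeR adjusted p = 0.0126) and was lost without control replicate 2 (edgeR adjusted p = 0.224). The changes of -0.11 (Ubn1, edgeR adjusted p = 0.534) and -0.07 (Ubn2, edgeR adjusted p = 0.467) did not pass. Of 5 Kdm1a partners, the scaffold gene Rcor1 fell after Hira depletion (-0.52, edgeR adjusted p = 0.00024) and the deacetylase gene Hdac2 fell after Ubn1 (-0.33, edgeR adjusted p = 0.0247) and Ubn2 depletion (-0.40, edgeR adjusted p = 4.41e-05), and no other partner passed. Of all genes tested, 17.3%, 3.62% and 19.1% fell after Hira, Ubn1 and Ubn2 depletion. Kdm1a lies on chromosome 4 (136550540 to 136602723, minus strand).

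Zmym2 was lower than control in all 6 depleted libraries. It stood at 119 and 112 CPM in control, 88.5 and 82.4 CPM in the Hira libraries, 98.7 and 92.1 CPM in the Ubn1 libraries and 93.0 and 90.4 CPM in the Ubn2 libraries. The log2 fold change was -0.45 (SE 0.08, edgeR adjusted p = 0.000137) for Hira and -0.34 (SE 0.07, edgeR adjusted p = 0.00061) for Ubn2, both of which passed with any 1 library left out. For Ubn1 it was -0.28 (SE 0.09, edgeR adjusted p = 0.06), which passed with all 8 libraries in one fit (edgeR adjusted p = 0.0377). Along with Chaf1b, it was the regulator whose 6 depleted libraries all lay below both controls. Zmym2 lies on chromosome 14 (56886653 to 56962701, plus strand).

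Rif1 could not be placed. It stood at 319 and 285 CPM in control, 258 and 286 CPM in the Hira libraries, 296 and 221 CPM in the Ubn1 libraries and 349.8 and 266 CPM in the Ubn2 libraries. Every condition overlapped its neighbours in the order of levels. The log2 fold changes of -0.17, -0.23 and 0.03 had edgeR adjusted p = 0.114, 0.213 and 0.838, and without Ubn1 replicate 1 the Ubn1 change became -0.46 (edgeR adjusted p = 1.5e-05). Rif1 lies on chromosome 2 (52072832 to 52122383, plus strand).

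Further pathways around these regulators were read from lists. Among all genes tested, 17.6% rose and 17.3% fell after Hira depletion, and 20.0% rose and 19.1% fell after Ubn2 depletion. After Ubn1 depletion 4.14% rose and 3.62% fell. A count of a list near these shares says nothing about the list. The SUMO pathway modifies Trim28 and Setdb1 complexes and represses the 2-cell state, and 4 of its 5 listed genes fell after Hira depletion, 0 after Ubn1 depletion and 2 after Ubn2 depletion, with 0 rising. Sumo2, which encodes a SUMO protein, changed by -0.46 after Hira depletion (edgeR adjusted p = 6.21e-05). The polycomb complex PRC1.6 silences germline genes and 2-cell genes in ESCs. Of its 9 listed subunits 4 rose and 1 fell after Hira depletion, 0 rose and 1 fell after Ubn1 depletion, and 3 rose and 1 fell after Ubn2 depletion. The DNA-binding subunit gene E2f6 rose after Hira (0.50, edgeR adjusted p = 0.00081) and Ubn2 depletion (0.39, edgeR adjusted p = 0.00454), and Pcgf6, which defines the complex, fell after Ubn1 (-0.34, edgeR adjusted p = 0.0351) and Ubn2 depletion (-0.31, edgeR adjusted p = 0.00515).

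Of 10 other known repressors, 5 fell and 0 rose after Hira depletion, 0 passed after Ubn1 depletion (4 at an unadjusted p under 0.05), and 1 rose and 1 fell after Ubn2 depletion. Of all genes tested, 17.6%, 4.14% and 20.0% rose and 17.3%, 3.62% and 19.1% fell after Hira, Ubn1 and Ubn2 depletion. Uhrf1, which guides DNA methylation to replicated DNA, stood at 535 and 539 CPM in control and 319.6 and 366 CPM in the Hira libraries (log2 fold change -0.67, edgeR adjusted p = 1.68e-06), and the FACT subunits Ssrp1 (-0.45, edgeR adjusted p = 8.01e-05) and Supt16 (-0.41, edgeR adjusted p = 0.000211) fell there too. Germline genes that PRC1.6 and H3K9 methylation silence were also read. Of 12, 6 rose and 1 fell after Hira depletion, 0 rose and 3 fell after Ubn1 depletion, and 6 rose and 1 fell after Ubn2 depletion. Taf7l, a testis TFIID subunit, went from 2.97 and 1.79 CPM in control to 12.9 and 8.93 CPM in the Hira libraries and to 5.98 and 5.87 CPM in the Ubn2 libraries (log2 fold change 2.23 and 1.35, edgeR adjusted p = 7.26e-07 and 0.000223). Mael, a piRNA pathway gene, fell in all 3 comparisons (-0.49, -1.28 and -0.76, edgeR adjusted p = 0.0237, 4.78e-05 and 0.000846).

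The depletions were then compared with each other, without the control libraries. Between Hira and Ubn2 depletion 6 of the 10 regulators differed, with 5 lower and 1 higher after Hira depletion, where 17.2% and 18.6% of 18563 genes were lower and higher. Trim28 differed by -0.71 (SE 0.09, edgeR adjusted p = 2.86e-05), Dppa2 by -0.59 (SE 0.08, edgeR adjusted p = 7.32e-05) and Setdb1 by -0.49 (SE 0.07, edgeR adjusted p = 0.000145). Trim28 and Dppa2 passed the fold of 1.5, which 17.6% of all genes passed. Chaf1a (-0.34, edgeR adjusted p = 0.00232) and Dppa4 (-0.33, edgeR adjusted p = 0.00233) were lower as well, and Ehmt2 was higher by 0.21 (edgeR adjusted p = 0.0462), a call that most alternatives lost. Chaf1b (-0.19, edgeR adjusted p = 0.0736) and Zmym2 (-0.09, edgeR adjusted p = 0.365), both lower than control after each depletion, were not shown to differ between the pair.

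Between Hira and Ubn1 depletion 4 regulators were lower after Hira depletion and 0 higher, against 10.2% lower and 14.2% higher among 18819 genes, and Trim28 alone (-0.63, SE 0.12, edgeR adjusted p = 0.00029) passed the fold of 1.5, against 12.7%. The other 3, Chaf1b (-0.39), Chaf1a (-0.36) and Setdb1 (-0.33), had edgeR adjusted p = 0.00602, 0.0079 and 0.0129, and lost the call without Hira replicate 1. Between Ubn2 and Ubn1 depletion Dppa2 (0.40, SE 0.09, edgeR adjusted p = 0.00504) and Dppa4 (0.31, SE 0.09, edgeR adjusted p = 0.0202) were higher after Ubn2 depletion and 0 regulators were lower, against 8.6% higher and 7.98% lower among 18205 genes. Both calls were lost without either Ubn2 library. These pairs share libraries with each other, so their values are given side by side only.

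**Figure D4:**
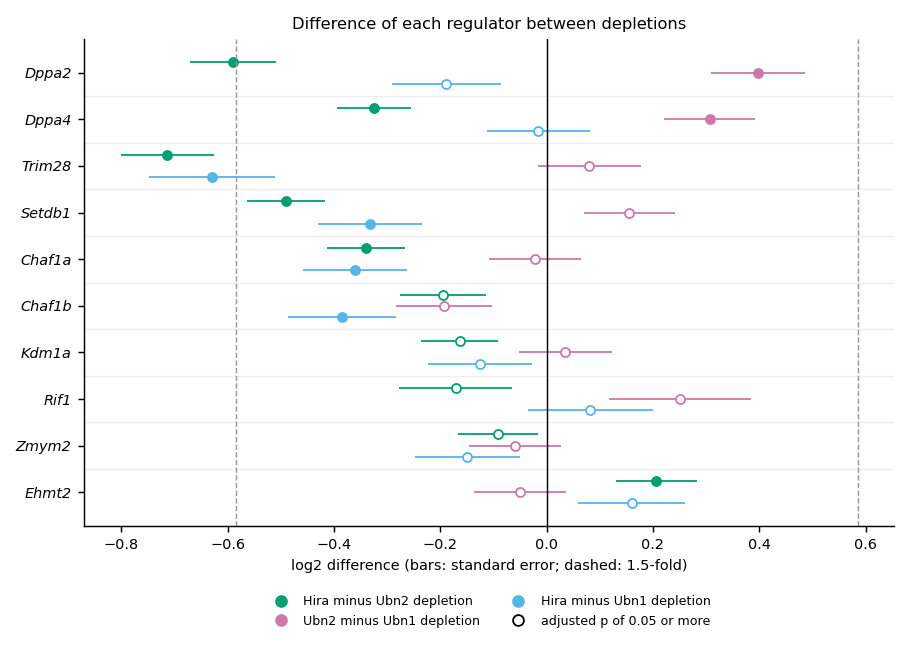
Log2 difference of each regulator between depletions, as Hira minus Ubn2, Ubn2 minus Ubn1 and Hira minus Ubn1, from edgeR. Bars are standard errors, filled points passed the test, open points did not, and dashed lines mark 1.5-fold. Trim28 is lower after Hira depletion than after either of the others (-0.71 and -0.63), and Dppa2 is higher after Ubn2 depletion than after either of the others.

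Read against the 2-cell genes, the regulators did not share 1 order. By condition means, the 2-cell genes stood highest after Ubn2 depletion, then Hira, then Ubn1, then control. No regulator had that order of means or its reverse. Of 18 2-cell genes tested, 4 were lower and 0 higher after Hira than after Ubn2 depletion (17.2% and 18.6% of all genes). Of 19 tested, 3 were higher and 0 lower after Hira than after Ubn1 depletion (14.2% and 10.2% of all genes). Also of 19, 11 were higher and 0 lower after Ubn2 than after Ubn1 depletion (8.6% and 7.98% of all genes). Dppa2 had Ubn2 at the top and control at the bottom, but with the Ubn1 libraries above the Hira libraries. That step did not pass in the direct comparison (edgeR adjusted p = 0.190). Chaf1b and Zmym2 had control at the top, but with the Hira libraries, not the Ubn2 libraries, at the bottom. Hira and Ubn2 depletion were not shown to differ there (edgeR adjusted p = 0.0736 and 0.365). For Ehmt2, only the step between Hira and Ubn1 broke the reverse order, and it did not pass (edgeR adjusted p = 0.263). For Kdm1a, Ubn2 depletion was not shown to differ from Hira or Ubn1 depletion (edgeR adjusted p = 0.0922 and 0.827). For Dppa4, Hira and Ubn1 depletion were not shown to differ from control (edgeR adjusted p = 0.208 and 0.635) or each other (0.927). Rif1 passed in no comparison. A departure from both the 2-cell order and its reverse was therefore not shown for Dppa2, Dppa4, Chaf1b, Zmym2, Ehmt2, Kdm1a and Rif1. Trim28 and Setdb1 passed the test in opposite directions in the Hira and Ubn2 comparisons, whereas the 2-cell sum was above control in both.

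The same was looked at between the 2 libraries of a condition. The 2-cell sum was higher in replicate 1 for control and Hira (ratio 1.54 and 1.33) and in replicate 2 for Ubn1 and Ubn2 (1.04 and 1.44). Of the 10 regulators, 0 were higher in that library in all 4 conditions, Dppa4 was higher in 3, Trim28, Setdb1 and Rif1 in 1 each and the other 6 in 2 each. With 1 pair of libraries per condition these are counts without a test.

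Other genes with profiles like those of the regulators were found by the root mean square distance between log2 levels over the 8 libraries, each centred on its mean, among 10356 genes of at least 10 CPM on average. The nearest to Dppa2 were Dxo, Mrps34 and Pdf (0.05 to 0.06), to Trim28 Smyd4, Gemin4 and Pnp (0.03 to 0.07), and to Chaf1b Cfdp1, Cox6c and Cct8 (0.04 to 0.05). Those to Chaf1a were Mybl2, Nit1 and Psmd3, and those to Zmym2 were Arl14ep, Swi5 and Zfp354c. Among the regulators themselves the closest pair was Setdb1 and Chaf1a (0.07), with Chaf1a at rank 73 from Setdb1. The nearest regulator to Trim28 was Setdb1, at rank 246.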

How the data were processed

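Gene-level RNA-seq counts were deposited by the authors as 3 tables of whole-number counts, each with 2 depleted and 2 control libraries. The control columns were identical in the 3 tables (0 values differed), so 8 libraries were used once each. Per the labels and the submitters' processing notes, reads were trimmed with Trim Galore, aligned with STAR to GRCm38 and counted with featureCounts. Versions, strand and the handling of multi-mapped reads are not given in the sources used here.

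Counts were analysed in R 4.3.3 with edgeR 4.0.16 (filterByExpr, TMM scaling, quasi-likelihood F test, pairwise groups, no covariate, Benjamini-Hochberg adjustment over all tested genes). CPM use TMM-scaled library sizes. The test was tested on simulated data. Alternatives were DESeq2 1.42.0, its size factors, other filters, 1 shared fit of the 8 libraries, a block on the replicate number and leaving out each library. Positions and exon lengths come from GENCODE M21, and 55303 symbols matched 1 gene.

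The regulators and lists were chosen with earlier results of these data known. Named genes were the 10 regulators, the 3 targets, up to 4 genes per list with the smallest adjusted p in a comparison with control plus Duxf3, and the 3 genes most like each regulator that passed. The values of 1 gene that this rule names are not reported here.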

Additional observations from a re-analysis of the deposited data

Results flagged for a closer look

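A direct test between depletions showed a difference for 6 regulators between Hira and Ubn2 depletion (log2 difference, Hira minus Ubn2). They were Trim28 (-0.71), Dppa2 (-0.59), Setdb1 (-0.49), Chaf1a (-0.34), Dppa4 (-0.33) and Ehmt2 (0.21). The first 5 had an adjusted p below 0.05 in every alternative fit run, each left-out library included, and Ehmt2 did not. For Trim28 and Setdb1 the comparisons with control passed in opposite directions.

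Between Ubn2 and Ubn1 depletion (Ubn2 minus Ubn1) the difference was 0.40 for Dppa2 and 0.31 for Dppa4. Between Hira and Ubn1 depletion (Hira minus Ubn1) it was -0.63 for Trim28, -0.39 for Chaf1b, -0.36 for Chaf1a and -0.33 for Setdb1.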

How the results depend on the processing

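Of 420 values of single regulators under alternatives other than leaving out a library, 403 kept their direction and side of the threshold, 9 lost the call, 8 gained one and 0 reversed. Of 240 with a library left out, 197 kept both, 20 lost the call, 10 gained one and 13 changed sign, all 13 of them values that passed neither way. Their log2 ranges over the left-out libraries were -0.027 to 0.13 for Dppa2 and -0.20 to 0.082 for Ehmt2 in Hira against control, -0.15 to 0.0099 for Kdm1a and -0.18 to 0.21 for Rif1 in Ubn2 against control, -0.36 to 0.034 for Rif1 in Hira against Ubn2, -0.053 to 0.0035 for Chaf1a and -0.13 to 0.025 for Ehmt2 in Ubn2 against Ubn1, and -0.095 to 0.034 for Dppa4 and -0.12 to 0.29 for Rif1 in Hira against Ubn1. With 1 library left out, the lone library of its condition is assumed to vary like the others. The other scalings moved the median of all genes by at most 0.029 on the log2 scale.

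With a fold change over 1.5 required as well, the regulators that passed were 1 for Hira against control, 1 for Ubn2 against control, 2 for Hira against Ubn2, 0 for Ubn2 against Ubn1 and 1 for Hira against Ubn1. In the Ubn1 comparison with control, all 8 libraries in one fit gave 1 regulator (Zmym2), with or without the block. The cause was not tested. With at least 10 counts in every library, 8 2-cell genes passed for Hira and 8 for Ubn2, since fewer entered. DESeq2 gave 3 for Ubn1.

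The replicate numbers are not stated to mark a shared culture or day, and same-numbered libraries did not deviate together (correlations of deviations from the group means -0.10 to 0.10 over 19264 genes). With the replicate number as a block, 7 regulators passed for Hira, 3 for Ubn1 (Dppa2, Rif1 and Zmym2) and 7 for Ubn2 against control.

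With 1 library left out, the regulators that passed numbered 3 to 7 for Hira (3 without control replicate 2), 0 to 2 for Ubn1 (above 0 only without an Ubn1 library) and 6 to 7 for Ubn2 against control, 5 to 6 for Hira against Ubn2, 0 to 3 for Ubn2 against Ubn1 (0 without Ubn2 replicate 1, and Rif1 alone without Ubn2 replicate 2) and 1 to 5 for Hira against Ubn1 (1 without Hira replicate 1). The 2-cell genes that passed numbered 11 to 14, 4 to 8 (4 without control replicate 2) and 12 to 17 for Hira, Ubn1 and Ubn2.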
